A study of Mus musculus with 2 samples.

Results

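Galnt9 and 9 other genes for polypeptide N-acetylgalactosaminyltransferases (GalNAc transferases), namely Galnt1, Galnt2, Galnt3, Galnt7, Galnt10, Galnt11, Galnt13, Galnt14 and Galnt16, were examined for binding of the transcription factor EGR1 in mouse frontal cortex. A peak was counted at a gene when its centre lay in the gene body or within 10 kb of a transcription start site (TSS) of GENCODE release M21. By this rule, 15 of the 12014 EGR1 peaks belonged to 8 of the 10 genes. Galnt9, Galnt14 and Galnt16 had 3 peaks each, Galnt10 had 2, and Galnt1, Galnt2, Galnt7 and Galnt13 had 1 each, whereas Galnt3 and Galnt11 had 0.

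The peaks come from EGR1 ChIP-seq, in which DNA bound by EGR1 is pulled down with an antibody and sequenced, performed in frontal cortices of male mice aged 6 weeks. The mice were F1 hybrids of 129SvEv and C57BL/6N, for which the labels name no engineered allele and no treatment, and each of the 2 ChIP experiments pooled several of them. The deposited list merges both experiments into intervals on the build mm10. Each has an irreproducible discovery rate (IDR), a q-value-like number that falls as the 2 experiments rank a peak more strongly and more similarly, and only intervals with an IDR of at most 2% are listed. The list has no read counts, so the depth behind each peak is unknown, no value has a replicate error, and no difference reported here was tested. An input DNA sample is part of the series, but its signal was not analysed here. Frontal cortex mixes neurons and glia, and the list does not tell which cells carry a peak.

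GalNAc transferases are enzymes of the Golgi that take N-acetylgalactosamine from its nucleotide sugar and attach it to serine or threonine, the step that starts mucin-type O-glycans. Family members differ in the peptides they prefer, and some act mainly on peptides that already carry a sugar. EGR1 is a zinc-finger factor that neurons induce rapidly upon activity and that binds a GC-rich site of the form GCGTGGGCG or GCGGGGGCG.

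The sequences that separate the kinds of peak at these genes are shown first, on the plus strand of mm10 and outside every annotated exon. They are those of the reference strain C57BL/6J, and the alleles of the hybrid mice were not read. Capitals mark the EGR1 site, or its reverse complement, with the fewest mismatches in the peak, where these are at most 1. In the Galnt2 sequence only the exact site is marked, and sites with 1 mismatch beside it are left in lower case. A sequence without capitals has no site with at most 1 mismatch. The 3 intronic Galnt9 peaks are shown because they are the only peaks of that gene, and the first of them is the locus for which the study designed its assays. For Galnt2, the 236 bases of a 257-bp promoter peak that lie outside the exon are shown because they hold an exact site. The Galnt14 peak beside the TSS has its near-match 2 bp from the centre, and the 2 intronic Galnt16 peaks, 1 with a near-match and 1 without, had low IDR values.
Galnt9 intron 1, chr5:110562793-110563042: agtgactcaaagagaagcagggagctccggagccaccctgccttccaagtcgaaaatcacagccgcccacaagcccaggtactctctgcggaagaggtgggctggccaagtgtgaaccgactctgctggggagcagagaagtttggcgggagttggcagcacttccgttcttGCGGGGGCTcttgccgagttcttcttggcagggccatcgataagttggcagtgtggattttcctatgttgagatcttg
Galnt9 intron 4, chr5:110595437-110595686: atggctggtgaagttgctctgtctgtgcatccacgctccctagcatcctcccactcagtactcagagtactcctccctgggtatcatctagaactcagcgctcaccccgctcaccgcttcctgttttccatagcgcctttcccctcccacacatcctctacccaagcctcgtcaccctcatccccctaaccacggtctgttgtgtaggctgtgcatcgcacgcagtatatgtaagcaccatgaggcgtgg
Galnt9 intron 5, chr5:110598958-110599207: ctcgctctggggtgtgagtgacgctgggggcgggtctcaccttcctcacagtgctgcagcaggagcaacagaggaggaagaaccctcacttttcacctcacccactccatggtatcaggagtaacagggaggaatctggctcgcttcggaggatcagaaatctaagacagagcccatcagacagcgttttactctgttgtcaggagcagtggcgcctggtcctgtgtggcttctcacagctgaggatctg
Galnt2 promoter, chr8:124231155-124231390: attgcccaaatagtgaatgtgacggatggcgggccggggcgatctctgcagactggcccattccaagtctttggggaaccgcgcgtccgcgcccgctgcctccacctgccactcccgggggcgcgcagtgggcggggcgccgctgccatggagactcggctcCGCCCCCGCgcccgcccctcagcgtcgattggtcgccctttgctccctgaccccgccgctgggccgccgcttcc
Galnt14 intron 1, chr17:73709585-73709838: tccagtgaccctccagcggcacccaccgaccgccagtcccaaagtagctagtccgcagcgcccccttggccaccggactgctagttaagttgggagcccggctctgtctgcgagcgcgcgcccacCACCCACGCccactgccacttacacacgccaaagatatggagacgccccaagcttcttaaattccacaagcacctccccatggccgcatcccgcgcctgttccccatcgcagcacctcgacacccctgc
Galnt16 intron 2, chr12:80527811-80528074: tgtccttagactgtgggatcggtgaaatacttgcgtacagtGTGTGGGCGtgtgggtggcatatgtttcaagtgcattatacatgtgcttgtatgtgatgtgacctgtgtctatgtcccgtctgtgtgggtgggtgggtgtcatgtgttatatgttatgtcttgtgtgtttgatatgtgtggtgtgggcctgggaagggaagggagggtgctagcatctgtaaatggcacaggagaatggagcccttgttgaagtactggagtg
Galnt16 intron 3, chr12:80575285-80575351: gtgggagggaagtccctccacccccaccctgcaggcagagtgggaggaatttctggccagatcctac

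Having peaks was common for genes of this length. Over all 21938 protein-coding genes, 39.6% had at least 1 EGR1 peak by the same rule, against 8 of the 10 transferase genes. The share rose with gene length, and the transferase genes are long, at 42.2 kb (Galnt3) to 682 kb (Galnt13). Of protein-coding genes between 30 and 60 kb long, the class of Galnt3 and Galnt11, 45.0% had a peak. The share was 52.5% between 60 and 100 kb, the class of Galnt1 and Galnt9, and 57.2% between 100 and 200 kb, the class of Galnt2, Galnt7, Galnt10 and Galnt16. Above 200 kb, the class of Galnt13 and Galnt14, it was 68.2%. A peak centre within 2 kb of a TSS was found at 7 of the 10 transferase genes and at 29.6% of protein-coding genes. This share also rose with length, and was 37.0%, 42.1%, 42.2% and 44.9% in the same 4 length classes. With an IDR of 0.001 or less, 3 of the 10 genes and 29.0% of protein-coding genes kept a peak by the rule. At least 3 peaks were found at 3 of the 10 genes and at 4.82% of protein-coding genes. In the length classes of these 3 genes the share was 7.75% (Galnt9), 9.97% (Galnt16) and 19.7% (Galnt14). The 10 genes were chosen with earlier results of these data known, which limits all these comparisons. Of the other 9 genes of the family, 4 had a peak by the rule and 3 had one within 2 kb of a TSS.

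**Figure D1:**
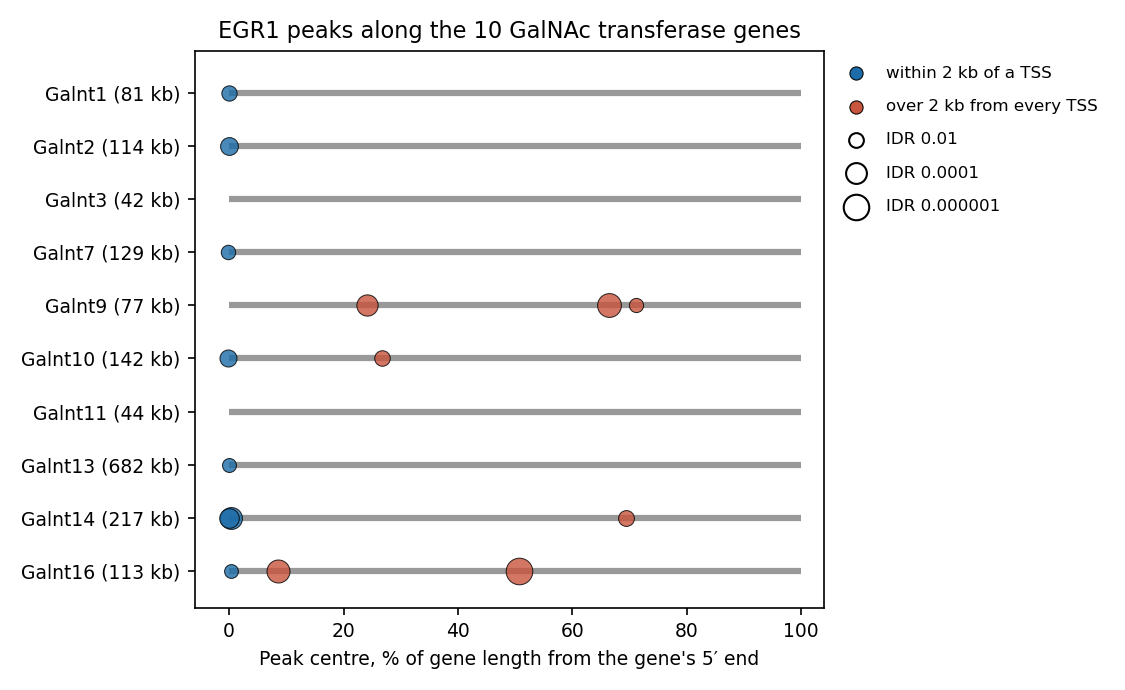
EGR1 peaks (circles, larger for lower IDR) along the 10 member genes (grey bars), with each peak centre placed as a percentage of gene length from the 5′ end. Blue circles, within 2 kb of a TSS, sit at the 5′ ends of 7 genes, whereas Galnt9 has only red circles, over 2 kb from every TSS, and Galnt3 and Galnt11 have none.

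Galnt9 (chr5:110544355-110621380, plus strand), a family member known for its expression in brain, carried its 3 peaks inside introns and none at a TSS. The first, chr5:110562793-110563042, lies in intron 1 of the 11-exon main transcript, 18563 bp downstream of the TSS and far from either exon, at 17850 bp from exon 1 and 14397 bp from exon 2. Its IDR was 6.95e-05. The second, chr5:110595437-110595686, lies in intron 4, 51207 bp into the gene and 379 bp before exon 5. With an IDR of 5.97e-06 it was the peak of the gene with the lowest IDR, below that of the intron 1 peak on which the study's assays were placed. The third, chr5:110598958-110599207, lies in intron 5 with its centre 3521 bp from that of the second, and had an IDR of 0.0138. Shorter transcripts of the gene start 59166 bp downstream of the main TSS, and the second and the third peak lay 7959 and 4438 bp upstream of this start. All 3 peaks stayed within the gene body, at 24.1%, 66.5% and 71.1% of its 77.0 kb.

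Peaks without any promoter peak were a minority pattern among genes with EGR1. Of the 8688 protein-coding genes with a peak by the rule, 25.3% had none within 2 kb of a TSS, and among the 1057 genes with at least 3 peaks the share was 12.5%, with Galnt9 among these 132 genes. In the list of 2129 peaks that lie in introns of protein-coding genes over 2 kb from every TSS, 15.5% had a lower IDR than the intron 4 peak of Galnt9, 26.4% had a lower one than the intron 1 peak, and 90.9% had a lower one than the intron 5 peak. Keeping only peaks with an IDR of 0.001 or less left the intron 1 and intron 4 peaks.

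The assays that the study placed at Galnt9 met the intron 1 peak in different parts. The ChIP-qPCR amplicon of 95 bp (chr5:110562903-110562997) lies wholly in the peak and holds its EGR1 near-match. The fragment cloned for luciferase reporters covers 99.6% of the peak, again with the near-match. The pyrosequencing amplicon (chr5:110562777-110562934) covers 56.8% of the peak with 5 CpGs and ends 30 bp before the near-match, so the site itself is outside the stretch whose methylation that assay reads. The RT-qPCR primers, which measure Galnt9 RNA, lie in exons 8 and 9 of the main transcript, downstream of all 3 peaks and of the start of the shorter transcripts. None of the study's Galnt9 primer pairs lies in the intron 4 or intron 5 peak.

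Galnt1 and Galnt2, broadly expressed members that act on unmodified peptides, had a single peak each, and both lay at the TSS. The Galnt1 peak, chr18:24205240-24205503, has its centre in exon 1, 28 bp downstream of the TSS, with an IDR of 0.00691. The Galnt2 peak, chr8:124231155-124231411, is centred 108 bp upstream of the TSS with an IDR of 0.00117. Galnt2 was the member with the lower IDR of this pair, and its peak also had the most CpGs of all 15, at 33.

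Galnt7 and Galnt10, members that prefer peptides already carrying a sugar, each had a peak just upstream of the TSS. In Galnt7 it is chr8:57653133-57653382, centred 226 bp upstream, with an IDR of 0.0121. In Galnt10 it is chr11:57645115-57645378, centred 195 bp upstream, with an IDR of 0.00211. Galnt10 differed from Galnt7 in having a second, intronic peak. This peak, chr11:57683188-57683451, lies in intron 1, 37855 bp from the nearest Galnt10 TSS, and had an IDR of 0.0059. Its nearest TSS is that of 4933426K07Rik, 25494 bp away, and it was the only one of the 15 peaks whose nearest TSS belonged to another gene.

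Galnt13, a member known from neurons, is the longest of the genes and yet had 1 peak. It is centred in exon 1 (chr2:54436265-54436519), 5 bp downstream of a TSS, with an IDR of 0.0159, and the next EGR1 peak on the chromosome was 350811 bp away. The rest of the 682-kb gene held no other peak of the list.

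Galnt14, a member linked to O-glycans of death receptors, had a pair of peaks at its start and another deep in the gene. The peak chr17:73710467-73710730 is centred 146 bp upstream of a TSS with an IDR of 0.000297. The peak chr17:73709585-73709838 lies 887 bp from it, in intron 1 and 354 bp downstream of a TSS, with an IDR of 3.79e-05. These were the TSS peaks with the lowest IDR among the 10 genes. The third peak, chr17:73559589-73559852 in intron 2, is 17676 bp from the nearest TSS and had an IDR of 0.00486.

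Galnt16 showed the opposite order, with its lowest IDR values in the introns. Its peak near a TSS, chr12:80518578-80518841, is centred 92 bp upstream of an alternative start in intron 1, and its IDR of 0.0174 was the highest of the 15. The peak in intron 2, chr12:80527811-80528074, is 8953 bp from a TSS with an IDR of 1.35e-05. The peak in intron 3, chr12:80575285-80575351, had the lowest IDR of all 15, 3.05e-07, and ranked 1733 of 12014. At 67 bp it is also the narrowest of the 15, in a list where 106 peaks are under 100 bp wide. By the RefSeq soft masking, 37.3% of its bases are repeats, although the 31-bp word at its middle occurs once in the assembled chromosomes, as those of the other 14 peaks do.

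Galnt3, known for glycosylating the hormone FGF23, and Galnt11, known for acting on low-density lipoprotein receptors and Notch, lacked peaks by a wide margin. The peak centre nearest to a TSS was 125104 bp away for Galnt3 and 105702 bp away for Galnt11. Neither gene was therefore near the limit of 10 kb. Of the peaks centred outside a gene body, that of Galnt7, 226 bp upstream, was the farthest from its TSS, and the next peak by Galnt1 was 18567 bp from its TSS peak and outside the rule. Absence from the list says only that no peak passed the IDR limit in both experiments.

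Across the genes, the median IDR was lower in introns than at TSSs, whereas in the whole list it was lower at TSSs. Within 2 kb of a TSS lay 8 of the 15 peaks, against 63.6% of all peaks. The remaining 7 lay in introns over 2 kb from every TSS, against 17.8% of all peaks. These shares are not like for like, because all peaks include those outside genes and over 10 kb from every TSS, which the rule leaves out. The transferase genes are also long, and the shares were not tested. The 8 peaks at TSSs ranged from 3.79e-05 to 0.0174 with a median IDR of 0.00451, compared with 9.91e-05 over all 7598 peaks at TSSs, and 7 of the 8 were above that median. The 7 intronic peaks ranged from 3.05e-07 to 0.0138 with a median of 6.95e-05, compared with 0.0013 over all 2129 such peaks, and 4 of the 7 were below that median. The TSS peaks of Galnt1, Galnt7, Galnt13 and Galnt16 had an IDR above 86.6%, 93.3%, 96.8% and 98.1% of all TSS peaks. The ranges of the 2 kinds overlap widely, and without replicate values the difference between the medians was not tested. Within single genes the order was mixed. Galnt10, Galnt14 and Galnt16 had peaks of both kinds, and the lowest IDR was intronic only in Galnt16, as it was in 34.5% of the 779 protein-coding genes with peaks of both kinds.

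**Figure D2:**
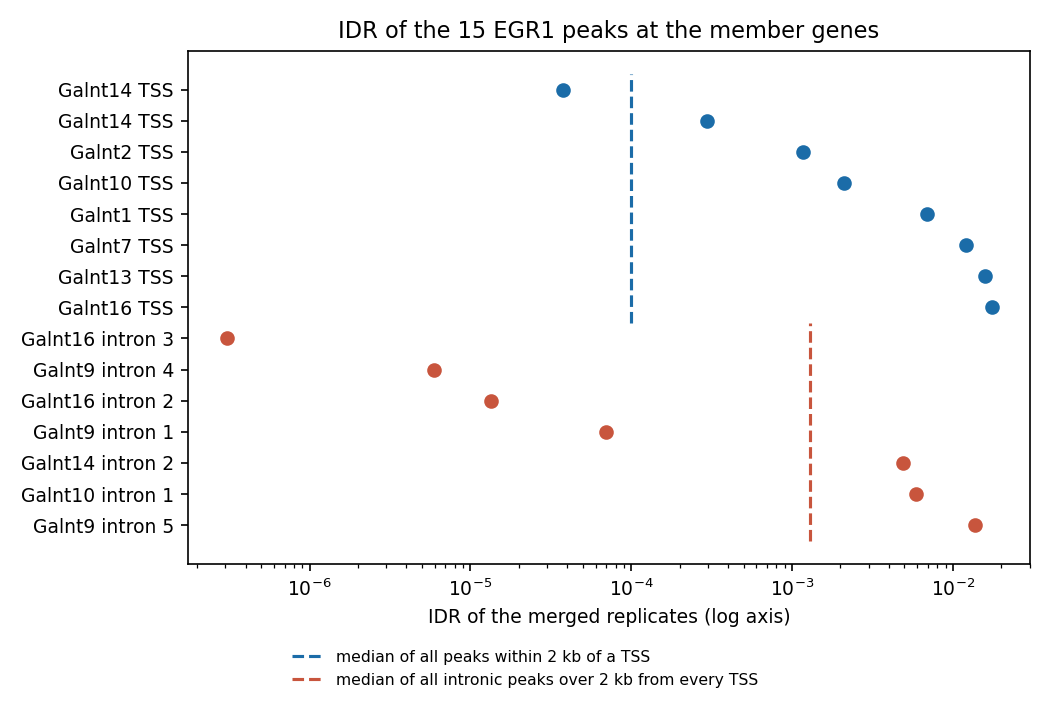
IDR of each of the 15 peaks (points, log axis) for peaks within 2 kb of a TSS (blue) and over 2 kb from every TSS (red), with the median of all peaks of the same kind as a dashed line. Of the 8 blue points 7 lie to the right of their median, and 4 of the 7 red points lie to the left of theirs.

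The exact EGR1 motif, GCGTGGGCG or GCGGGGGCG on either strand, was present in 2 of the 15 peaks (13.3%, 95% Wilson interval 3.74 to 37.9%, counting error only) and in 16.6% of all peaks on assembled chromosomes. Both were at TSSs. The Galnt2 promoter peak holds GCGGGGGCG on the minus strand, 38 bp from its centre, and the Galnt14 peak upstream of the TSS holds the same form on the plus strand, 53 bp from its centre. With 1 mismatch allowed, 9 of the 15 peaks held a site, against 69.8% of all peaks. These were 7 of the 8 peaks at TSSs (81.6% of all TSS peaks) and 2 of the 7 intronic peaks (47.2% of all intronic peaks). With so few peaks, these shares were not tested against those of the list.

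The near-matches are given by their substitution, with the motif's base first and positions counted from 1 at its 5′ end. In the intron 1 peak of Galnt9 the site GCGGGGGCT (chr5:110562965-110562973, 51 bp from the centre) differs by G9T. This change removes the CpG at the end of the motif and leaves the one at its start. The Galnt14 peak in intron 1 holds GCGTGGGTG on the minus strand (C8T), 2 bp from the centre. The Galnt16 peak in intron 2 holds GTGTGGGCG (C2T), 87 bp from the centre, in a peak of which 18.6% is masked as repeat. Galnt1 had 1 near-match, Galnt7 had C2A on the minus strand, and the Galnt16 peak near the TSS had 2 sites, with G9A and G6C. Among the peaks without an exact site, that of Galnt13 had the most near-matches, with 4 (C2A, G9C, G5T and G3C). Near-matches beside an exact site, in the Galnt2 peak and the Galnt14 peak upstream of the TSS, were not counted. The remaining 6 peaks had at best 2 mismatches. They are the intron 4 and intron 5 peaks of Galnt9, both Galnt10 peaks, the intron 2 peak of Galnt14 and the intron 3 peak of Galnt16. The peaks with the lowest IDR of Galnt9 and of Galnt16 were therefore both without a near-match inside the interval.

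Other motifs of activity-regulated or promoter elements were found in 0 to 8 of the 15 peaks. The GC box of SP-family factors, GGGCGG, which can overlap the EGR1 motif by its last bases, was in 8 of the 15 peaks and in 55.8% of all peaks. In Galnt9 it was in the intron 1 and intron 5 peaks and not in the intron 4 peak. The cAMP response element TGACGTCA was in 0 of the 15 and in 1.3% of all peaks, and its shorter form TGACG, which the full element contains, was in 3 of the 15 (Galnt2 and the intron 4 and intron 5 peaks of Galnt9) and in 19.6% of all. The AP-1 motif TGANTCA was in 2 of the 15, the intron 1 peak of Galnt9 and the TSS peak of Galnt16, and in 6.48% of all. The E-box CAGATG, of the type that NeuroD factors bind, was in 3 of the 15 (Galnt10, Galnt14 and Galnt16) and in 17% of all. All motifs were searched on both strands, and a match of letters is not evidence of binding by the factor.

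Most of the peaks were richer in CpG than their surroundings. The observed/expected CpG ratio, the number of CpGs over that given by the C and G content, was higher in the peak than in the mean of its 2 flanking windows, of equal width and 5 kb away, for 14 of the 15 peaks, with medians of 0.68 and 0.13. Over all peaks the medians were 0.60 and 0.19, and 85.4% were higher than their windows. The exception was the intron 3 peak of Galnt16, which has 0 CpGs, as have its flanking windows. The 8 TSS peaks ranged from 0.68 (Galnt10) to 1.07 (Galnt1) with a median of 0.85, compared with 0.76 over all TSS peaks, and the intronic ones from 0 to 0.56 with a median of 0.35, compared with 0.27 over all intronic peaks. The ratios of the TSS and intronic peaks did not overlap. Closer to the peaks, the middle 200 bp held more CpGs than the 1800 bp around did per 200 bp for 13 of the 15. The others were the TSS peak of Galnt10, with 11 against 11.9, and the intron 3 peak of Galnt16, with 1 against 3.44. For that Galnt16 peak of 67 bp, the middle 200 bp is wider than the peak itself.

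**Figure D3:**
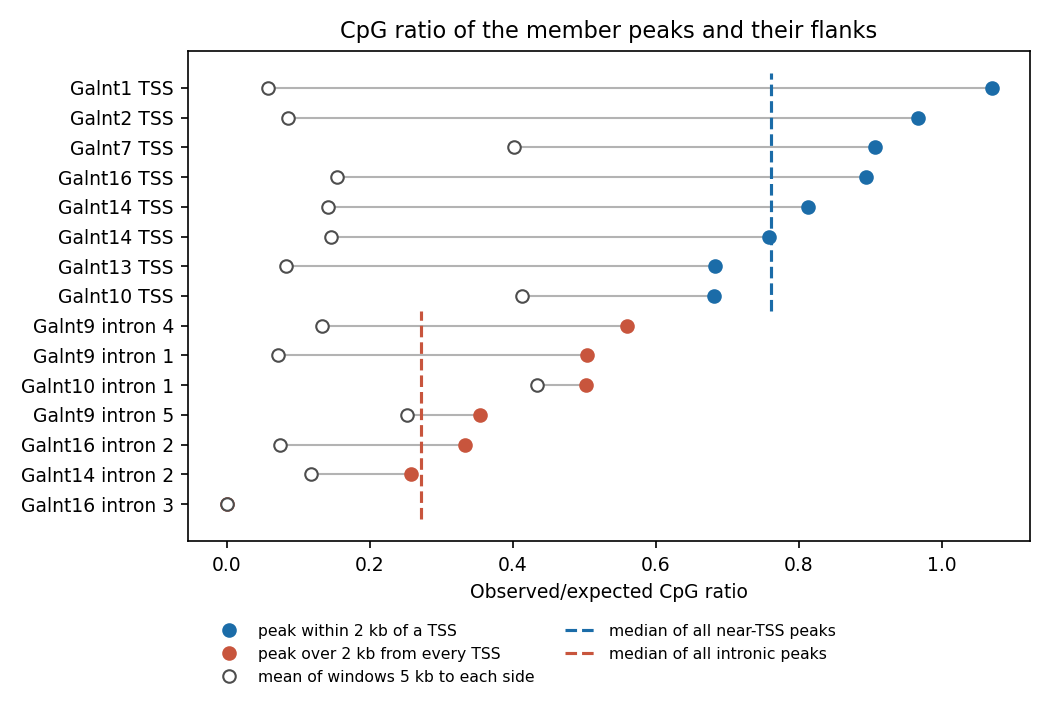
Observed/expected CpG ratio of each of the 15 peaks (filled points, blue within 2 kb of a TSS, red over 2 kb from every TSS) joined to the mean of its 2 flanking windows 5 kb away (open points), with the medians of all peaks of each kind dashed. In 14 of 15 peaks the filled point lies to the right, and in the intron 3 peak of Galnt16 both are at 0.

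The intron 4 peak of Galnt9 had the highest CpG ratio of the 7 intronic peaks. Its 10 CpGs gave a ratio of 0.56, against 0.13 in its windows, and 91.8% of all intronic EGR1 peaks had a lower one. The intron 1 peak, also with 10 CpGs, had a ratio of 0.50 against 0.07, and was above 88.5% of intronic peaks. The intron 5 peak had 7 CpGs and a ratio of 0.35 against 0.25, and was above 68.4%. The GC content was 56.8%, 56.4% and 56.4% in the same order, so the 3 peaks differed in CpGs more than in GC. At a finer scale, the middle 200 bp held 10 CpGs in the intron 1 peak and 9 in the intron 4 peak, and the 1800 bp around held 2.22 and 3.22 per 200 bp. For the intron 5 peak the numbers were 5 and 2.11. Exon 5, which begins 379 bp after the intron 4 peak, held 16 CpGs in 198 bp.

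**Figure D4:**
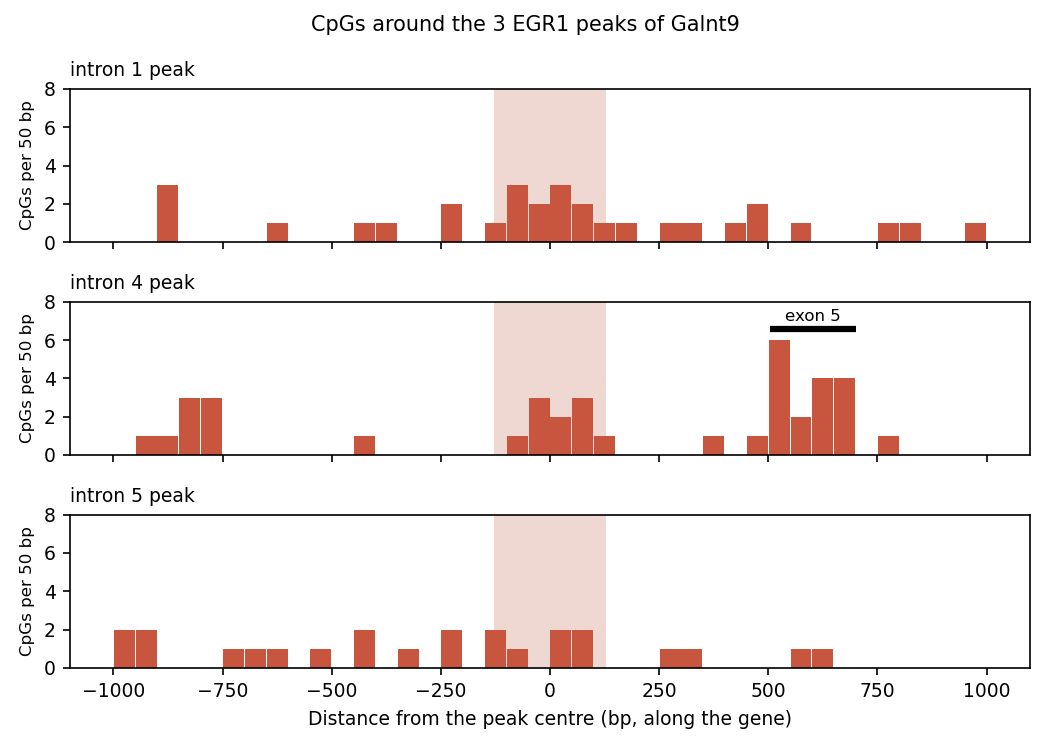
Number of CpGs in each 50-bp bin within 1 kb of the centre of the 3 Galnt9 peaks (shaded: the 250-bp peak), with exon 5 drawn as a black bar. The middle 200 bp hold 10, 9 and 5 CpGs from top to bottom, and exon 5 holds 16.

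The absence of a TSS peak at Galnt9 did not go with a CpG-poor promoter. In the window from 250 bp before to 50 bp after the TSS, Galnt9 had 41 CpGs, 73.7% G or C and an observed/expected CpG ratio of 1.06, above that of 95.1% of protein-coding genes and the highest of the 10 transferase genes. Of the 984 protein-coding genes with a promoter ratio at least as high, 50.1% had an EGR1 peak within 2 kb of a TSS. Galnt11, the other member with a high promoter ratio and no TSS peak, was at 0.96, and Galnt3 was at 0.66. The members with a TSS peak ran from 0.44 (Galnt16) to 1.04 (Galnt2), a range that overlaps with that of the 3 genes without one. The Galnt16 window lies at the gene's 5′ end. Its TSS peak is centred 433 bp downstream of that end, by an alternative start, and had a ratio of 0.89. An exact EGR1 motif was in 2 of the 10 promoter windows, those of Galnt2 and Galnt14, and in 4.72% of all promoters. The Galnt9 promoter window held no site with fewer than 2 mismatches, and 3 GC boxes.

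**Figure D5:**
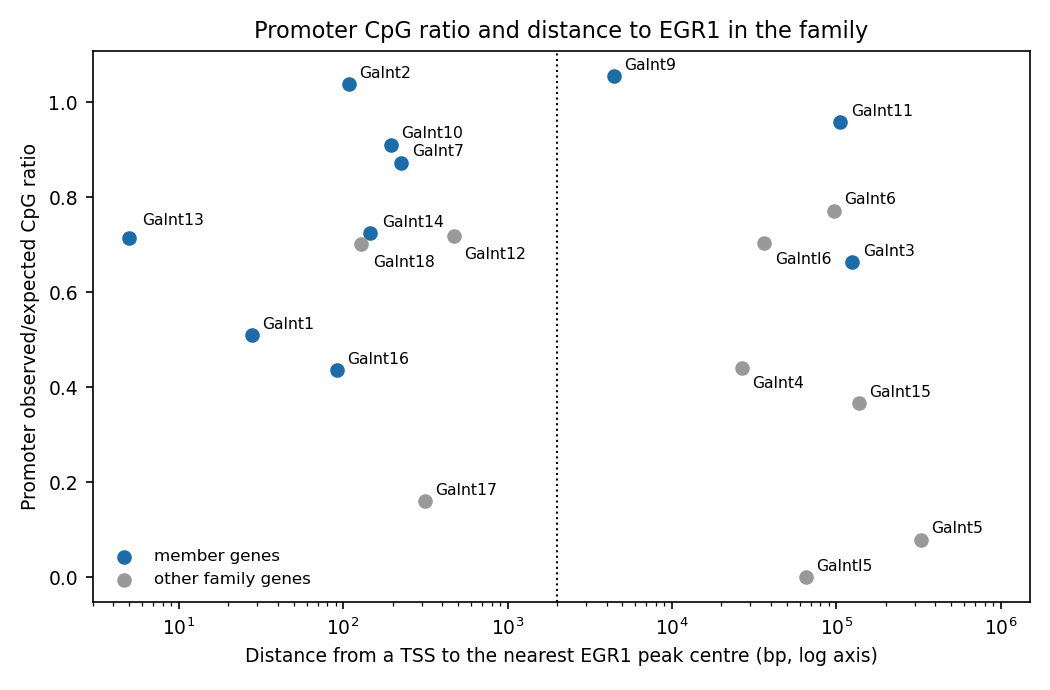
Observed/expected CpG ratio of the promoter window of each of the 19 family genes against the distance from a TSS to the nearest EGR1 peak centre (log axis, dotted line at 2 kb), with member genes in blue and other family genes in grey. Galnt9 has the highest ratio and lies to the right of the line with Galnt3 and Galnt11, while the 7 other member genes lie to its left.

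The rest of the pathway was read from lists of genes. Of the other 9 genes of the family, 4 had a peak (Galnt12, Galnt17, Galnt18 and Galntl6), 3 of them within 2 kb of a TSS. Of 15 genes for the extension of mucin-type O-glycans, 7 had a peak, and 4 had one at a TSS. C1galt1, which makes the core 1 structure, had none, while C1galt1c1, the chaperone it needs, had 1 peak at its TSS with an IDR of 0.000719. The lowest IDR in this list, 7.68e-08, was that of a peak by B3gnt3 that lies nearer to a TSS of Fcho1, followed by 7.87e-08 at the TSS of the sialyltransferase gene St6galnac4. Of 9 genes for the supply of the nucleotide sugar, 5 had a peak, with Pgm3 (8.85e-06), Uap1 (1.2e-05) and Uap1l1 (1.72e-05), enzymes of the hexosamine pathway, at their TSSs. Of 11 genes for enzymes that start other kinds of O-glycan, 9 had a peak, each with at least 1 within 2 kb of a TSS. The lowest IDR values were 1.92e-07 at Pomt2 of O-mannosylation, in a peak still nearer to a TSS of Gstz1, and 4.73e-07 at Pofut2 of O-fucosylation. Ogt and Eogt, which attach N-acetylglucosamine, had none. As with the 10 transferase genes, these counts stand beside 39.6% of protein-coding genes with a peak and were not tested. The counts at a TSS stand beside 29.6% with a peak centre within 2 kb of a TSS.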

How the data were processed

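EGR1 ChIP-seq was performed in frontal cortices of male mice. Reads were trimmed and aligned to mm10 (Bowtie) by the authors, who ran SPP on each replicate and merged the peaks that passed the IDR framework. The submitters' processing notes name cutadapt 11.2, Bowtie2 2.2.9 and bedtools 2.26.0. The deposited value of each peak is its IDR, read like a q-value. No counts were given, so depth is unknown.

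Positions were read as BED and printed counted from 1, since how they are counted is not stated. The sequence was that of GRCm38.p6, whose assembled chromosomes are those of mm10, and the 76 peaks on scaffolds were left out. Place and exon numbers refer to the principal GENCODE transcript. Motifs and CpGs were counted in Python 3.11.15 (numpy 2.4.6, pandas 2.3.3, scipy 1.17.1, matplotlib 3.10.9), with functions tested on simulated data. The member genes, gene lists and motifs were chosen with earlier results of these data known, and the named genes are all members, other family genes and, of each list, those with the lowest IDR. The genes of the lists without a peak were named after their values were seen. Counts and medians were set beside those over all peaks or genes. No test was run, because 1 merged list has no replicates. Assay primers were placed by exact match.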

Additional observations from a re-analysis of the deposited data

How the results depend on the processing

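The number of peaks at the 10 genes was 11 to 15 and of genes with a peak 6 to 8 under other distances, overlap in place of the centre, protein-coding starts only or an IDR of 0.01 or less. With an IDR of 0.001 or less, 6 peaks remained at 3 of the 10 genes (Galnt9, Galnt14 and Galnt16), beside 29.0% of protein-coding genes, and 1 peak, at Galnt14, held an exact motif. With 1 mismatch 9 peaks held the motif. Galnt9 had 2 or 3 peaks throughout. Counting gene bodies only lowered the share of protein-coding genes with a peak to 23.9%. The median CpG ratio was 0.35 without the peaks within 2 kb of a TSS, a change that follows from the peaks left out. The 8 peaks at a TSS were all within 500 bp. No paired analysis was possible because the result comes from no test, and no replicate could be left out of a merged list.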

Other observations

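The 4 other family genes with peaks repeated both layouts seen at the members. Galnt17, known from brain, had a peak in exon 1, 314 bp from its TSS, with an exact EGR1 motif and an IDR of 0.000106, and another in intron 6 with an IDR of 0.00411. Galnt18 had a peak 128 bp upstream of its TSS (IDR 0.00173) and intronic peaks with an IDR of 0.00198 and 0.0056. Galnt12 had 1 peak, centred in intron 1 and 472 bp downstream of its TSS, with the lowest IDR of these genes, 3.18e-05. Galntl6, at 1139 kb the longest of the family, had 3 intronic peaks and none within 2 kb of its own TSS, as Galnt9 did, with IDR values of 0.00138, 0.00271 and 0.0141. All 3 were above those of the intron 1 and intron 4 peaks of Galnt9. Galnt4, Galnt5, Galnt6, Galnt15 and Galntl5 had no peak, and the peak centre nearest to a TSS was 26501 to 326687 bp away.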
